A study of Homo sapiens with 18 samples.

Results

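The genes described here are 51 genes of mitosis and the spindle, listed by name from known function. The rule uses no measured value, but the list was made with earlier results of these data known. All 51 were among the 17017 gene symbols of the deposited count table, and all 51 passed the filter on low counts. They comprise 8 regulators of mitotic entry, 5 components of the spindle assembly checkpoint, 4 regulators of anaphase onset, 7 centromere and outer kinetochore proteins, 4 subunits of the chromosomal passenger complex, 8 kinesin motors, 7 spindle microtubule-associated proteins, 2 cytokinesis proteins and 6 proteins of mitotic chromosome structure.

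They were measured in MDA-MB-231, an established human triple-negative breast carcinoma line, in 3 treatments labelled SC, SH2 and SH3. SC is read as the scramble control. SH2 and SH3 are read as the 2 hairpins against fibrillarin (FBL), the methyltransferase that places 2'-O-methyl groups on ribosomal RNA. How SH2 and SH3 map to the study's knockdown 1 and knockdown 2 is not stated in the labels. All 3 groups were transduced with lentivirus made from pLKO.1 plasmids, kept in puromycin at 1 µg/ml for 96 h, and treated with cycloheximide at 100 µg/ml for 5 min before lysis. Cycloheximide stops elongating ribosomes. Each treatment has 3 libraries of input cytoplasmic RNA and 3 of ribosome footprints, the short stretches of mRNA that ribosomes protect from RNase. The labels do not say whether replicates came from separate transductions or cultures, so the p-values measure the spread between these libraries, which may be technical.

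Total counts were 23469830 to 27629488 per RNA library and 1662705 to 6098648 per footprint library. FBL, the targeted gene, was at 349 to 421 CPM (counts scaled to library size) in the SC RNA libraries, at 1.26 to 11.2 CPM in SH2 and at 2.95 to 4.15 CPM in SH3. Of 9 listed mesenchymal and basal markers of this line, VIM had the highest mean in SC RNA (5579 CPM) and TGFBI the lowest (44.3 CPM). The summed list of these markers was at 8432 to 10410 CPM in SC, 9807 to 10853 in SH2 and 7483 to 8455 in SH3. Of 11 luminal markers, 4 (ESR1, PGR, CDH1 and FOXA1) averaged under 1 CPM over the 9 RNA libraries. The luminal keratins KRT8, KRT18 and KRT19 averaged 530, 494 and 495 CPM in SC. Of 11 leukocyte, endothelial and fibroblast markers, 9 averaged under 1 CPM over the 9 RNA libraries. The exceptions were PECAM1 and COL1A1, and the summed list was at 31.4 to 47.1 CPM in SC, 55.7 to 106 in SH2 and 64.7 to 80.1 in SH3.

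Some libraries stood apart over the mitotic genes. SC replicate 1 was the lowest SC RNA library for 50 of the 51 genes (the exception was BUB3), and SC replicate 2 was the lowest SC footprint library for 41. Deviations from the group mean, correlated across 10335 genes, linked RNA replicate 1 with footprint replicate 2 in SC (Pearson r = 0.58) and in SH2 (0.57), and RNA replicate 2 with footprint replicate 1 (0.47 and 0.50). Libraries with the same number had r of -0.50 and -0.47 in SC and of -0.31 and -0.31 in SH2 for numbers 1 and 2. In these treatments RNA and footprint libraries numbered 1 or 2 thus did not deviate together, while those numbered 3 did (0.27 in SC and 0.51 in SH2). Which libraries share a lysate was not tested. In SH3 the same numbers went together (0.21 to 0.43). The tests below compare group means and use no numbers, and no footprint to RNA ratio is given for single libraries.

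A cell enters mitosis when cyclin B bound to CDK1 becomes active, helped by the Polo and Aurora kinases. Chromosomes condense, kinetochores bind spindle microtubules, and the checkpoint holds back the anaphase-promoting complex (APC/C, a ubiquitin ligase) until all are attached, after which separase is freed to cut cohesin. Most of these genes are transcribed in G2 and M phase under control of MuvB complexes with MYBL2 and FOXM1, which act through an element called the CHR (cell cycle genes homology region), often beside CCAAT boxes bound by NF-Y. In proliferating tumour cells their summed RNA is a common measure of the share of dividing cells.

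In cytoplasmic RNA the genes were lower with both hairpins. With SH2, 50 of 51 fell and 0 rose (edgeR quasi-likelihood test, adjusted p under 0.05), where 30.4% of the 12710 genes tested were called lower and 31.1% higher. With SH3 all 51 fell and 0 rose, against 25.2% called lower and 27.8% called higher over all genes. The median log2 change was -1.34 with SH2 and -1.39 with SH3, against 0.01 and 0.03 over all genes tested. The change was -1 or below in 42 and 39 members (9.8% and 7.54% of all genes). Both comparisons use the same SC libraries, so they are not independent of each other.

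Summed over the 51 genes, RNA was at 6439, 8964 and 8506 CPM in the 3 SC libraries, at 3675, 2986 and 3366 in SH2, and at 3734, 2733 and 3419 in SH3. Every knockdown library was below every SC library. The group means of SH2 and SH3 were 41.9% and 41.4% of that of SC. In bulk libraries, fewer cells in G2 and M phase and less of these RNAs per cell cannot be told apart. Taken singly, 49 genes with SH2 and 48 with SH3 had all 3 knockdown libraries below all 3 of SC (31.9% and 29.6% of all genes). The exceptions were INCENP and SMC2 with SH2, and INCENP, SMC2 and ECT2 with SH3. Without SC replicate 1 the counts of called members were 51 and 51.

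**Figure D1:**
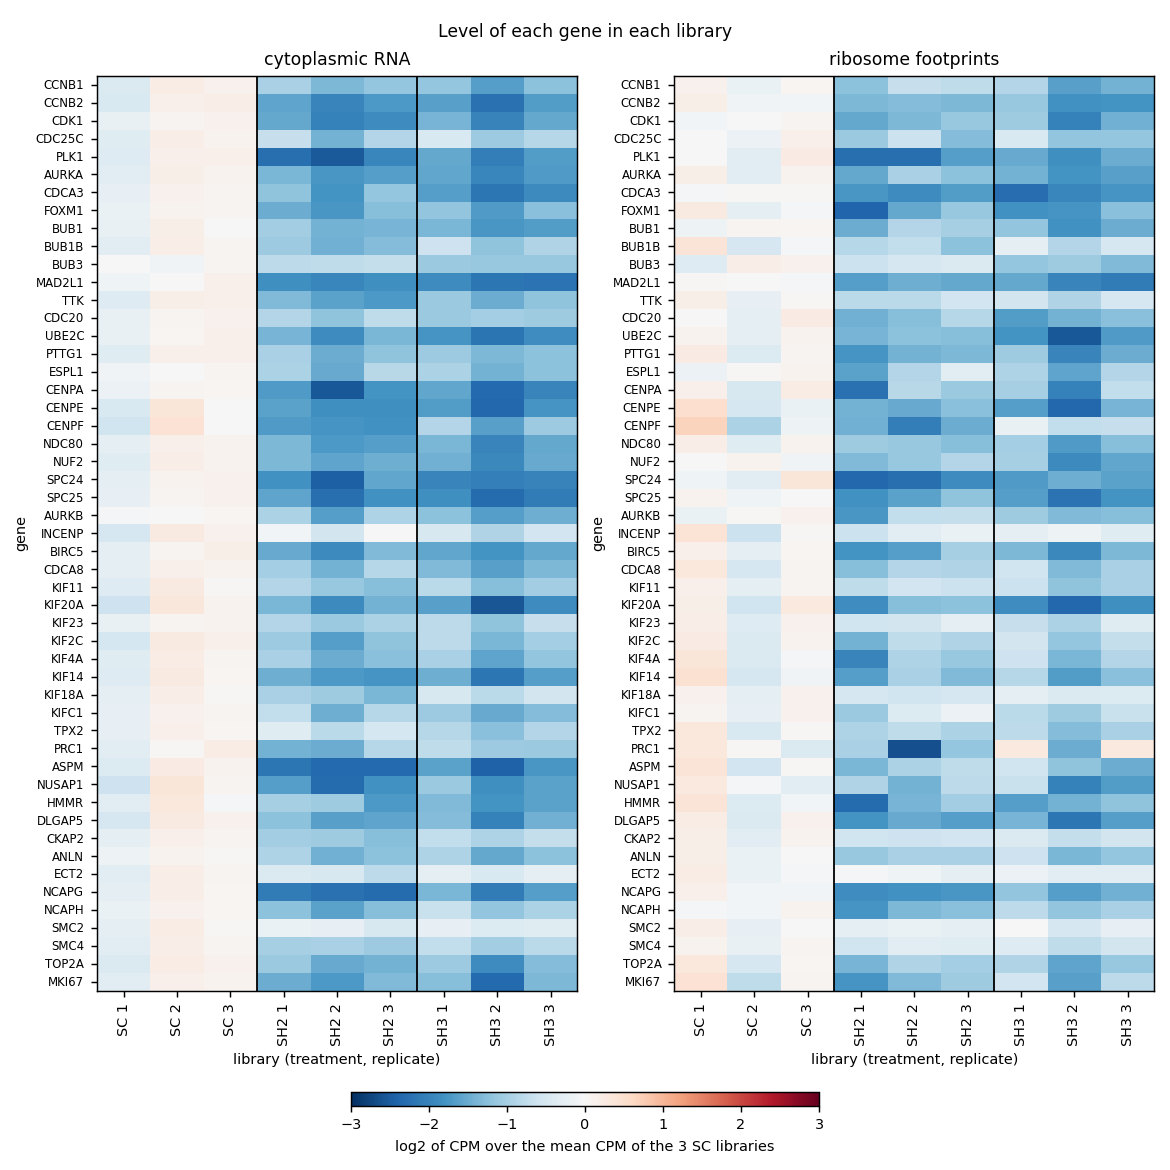
Level of each of the 51 genes (lines) in each library (columns: treatment and replicate) for cytoplasmic RNA (left) and ribosome footprints (right), as log2 of CPM over the mean of the 3 SC libraries, with blue lower and red higher. The SH2 and SH3 columns are blue for nearly all genes, palest for INCENP, ECT2 and SMC2, and SC 1 in RNA and SC 2 in footprints are the palest blue SC columns.

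The promoters of the genes were searched for the elements named above. Most of these genes are known to be controlled through them, so a high share among the members does not bear on the knockdown. A promoter of 300 bases (250 before to 50 after the RefSeq start, GRCh38.p14) was matched for 44 of the 51 genes. AURKA, FOXM1, BUB3, TTK, UBE2C, BIRC5 and TPX2 were not matched. A CHR, searched as TTTGAA or TTCGAA on both strands, was found in 34 of 44 (77.3%), against 16.6% of 27305 promoters of the same length. A CCAAT box, searched as CCAAT on both strands, was found in 33 of 44 (75.0%) against 35.7%, and at least 2 of them in 45.5% against 11.3%. Both elements were found in 27 of 44 (61.4%) against 6.58%. Neither motif contains the other, and overlapping matches were each counted. The 27305 promoters include genes outside the 17017 of the count table, and the shares over the genes tested here were not computed. Such matches describe the letters only and are not evidence of binding.

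Stretches upstream of 5 genes show how the elements sit. CCNB2 and PLK1 are shown because their CHR lies just before the start, HMMR because its CHR is repeated, ASPM because its RNA fell most with SH2, and INCENP because its RNA changed least with SH2 although it carries both elements. Capitals mark the CCAAT box and the CHR, each as its letters above or as their reverse complement, and all are written 5′ to 3′ on the gene's strand. They span chr15:59104896-59105132 (plus strand) for CCNB2, chr16:23678806-23678875 (plus) for PLK1, chr5:163460445-163460625 (plus) for HMMR, chr1:197146680-197146813 (minus) for ASPM and chr11:62123894-62124010 (plus) for INCENP.
CCNB2: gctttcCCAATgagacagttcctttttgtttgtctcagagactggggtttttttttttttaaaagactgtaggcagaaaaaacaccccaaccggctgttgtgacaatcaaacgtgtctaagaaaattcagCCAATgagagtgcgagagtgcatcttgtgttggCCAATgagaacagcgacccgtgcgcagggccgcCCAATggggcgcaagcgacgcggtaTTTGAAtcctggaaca
PLK1: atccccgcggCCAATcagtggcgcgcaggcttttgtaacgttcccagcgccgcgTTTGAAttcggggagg
HMMR: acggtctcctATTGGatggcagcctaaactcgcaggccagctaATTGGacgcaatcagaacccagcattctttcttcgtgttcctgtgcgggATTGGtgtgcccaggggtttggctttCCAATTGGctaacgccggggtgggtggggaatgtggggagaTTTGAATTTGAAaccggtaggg
ASPM: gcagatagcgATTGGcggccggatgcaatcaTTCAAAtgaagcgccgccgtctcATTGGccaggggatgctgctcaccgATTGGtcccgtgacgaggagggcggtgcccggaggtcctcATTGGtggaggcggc
INCENP: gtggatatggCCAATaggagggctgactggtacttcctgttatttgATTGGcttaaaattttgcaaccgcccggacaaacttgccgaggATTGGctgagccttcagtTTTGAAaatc

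Members with and without a CHR match in the searched promoter overlapped in size of change. Only the stretch at the first listed start of each gene was searched. Members counted as without a CHR may therefore carry an element outside that stretch or at another start. The 34 members with a match had a median RNA change of -1.31 with SH2 and -1.45 with SH3, and the 10 without a match had -1.25 and -1.28. Whether a CHR bears on the size of change was not tested. The ranges overlapped widely, from -2.27 to -0.19 with a match and from -1.89 to -0.96 without a match for SH2. INCENP, with 1 CHR and 3 CCAAT boxes in the stretch shown, had the smallest change with SH2, -0.19.

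All 8 regulators of mitotic entry fell in RNA with both hairpins, with a median log2 change of -1.54 for SH2 and -1.68 for SH3. Paired log2 changes from here on give SH2 first and SH3 second. AURKA, the Aurora kinase of the centrosome and spindle poles, was at 147, 208 and 200 CPM in SC, at 71.2, 55 and 58.9 in SH2, and at 62.4, 47.9 and 56.7 in SH3. Its groups do not overlap, and it changed by -1.59 (SE 0.15) and -1.73 (SE 0.15), with edgeR adjusted p of 8.13e-07 and 9.52e-07. PLK1, the Polo kinase that promotes mitotic entry and spindle assembly, was at 139, 203 and 203 CPM in SC, at 37.7, 31.5 and 46.4 in SH2, and at 62.4, 43.3 and 56.3 in SH3. It changed by -2.23 and -1.75, which left 21.2% and 29.8% of the SC level. CDK1, the mitotic kinase, fell (-1.80 and -1.62), and so did its partners CCNB1 (-1.15 and -1.34) and CCNB2 (-1.75 and -1.83). CDCA3, a factor of the ubiquitin ligase that removes the CDK1 inhibitor WEE1, was at 34, 44.4 and 42.6 CPM in SC, at 17.4, 11.6 and 17.9 in SH2, and at 12.8, 9.02 and 10.8 in SH3. FOXM1, the transcription factor that drives many of these genes, fell (-1.49 and -1.36). The phosphatase CDC25C, which activates CDK1, moved least in this group, by -0.96 and -0.78.

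All 5 spindle assembly checkpoint genes fell with both hairpins, with medians of -1.27 and -1.25. MAD2L1, the checkpoint protein that binds and holds CDC20, was at 107, 116 and 130 CPM in SC, at 32.8, 30.3 and 32.7 in SH2, and at 31.7, 26.3 and 25.3 in SH3. The highest knockdown library (32.8 CPM) is far below the lowest SC library (107 CPM), and MAD2L1 had the smallest adjusted p of the checkpoint group (edgeR, 2.39e-08 and 4.88e-08), with changes of -1.88 (SE 0.11) and -2.08 (SE 0.11). The checkpoint kinases BUB1 (-1.27 and -1.58) and TTK (-1.55 and -1.25) fell too. BUB1B, whose product BUBR1 also restrains CDC20, fell (-1.27 and -0.90), and BUB3, its binding partner, changed by -0.76 and -1.13.

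The 4 regulators of anaphase onset fell with both hairpins, with medians of -1.15 and -1.20. UBE2C, the ubiquitin-conjugating enzyme that works with the APC/C, was at 207, 250 and 268 CPM in SC, at 92.3, 65.7 and 93.1 in SH2, and at 71.3, 52.9 and 65.9 in SH3. It changed by -1.53 (SE 0.15) and -1.93 (SE 0.15), and no knockdown library reached an SC library. CDC20, the mitotic activator of the APC/C, fell (-0.94 and -1.07), as did securin, PTTG1 (-1.21 and -1.22), and separase, ESPL1 (-1.08 and -1.19). PTTG1 has near-identical copies elsewhere in the genome, and how reads shared with them were counted is not given in the sources used here.

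**Figure D2:**
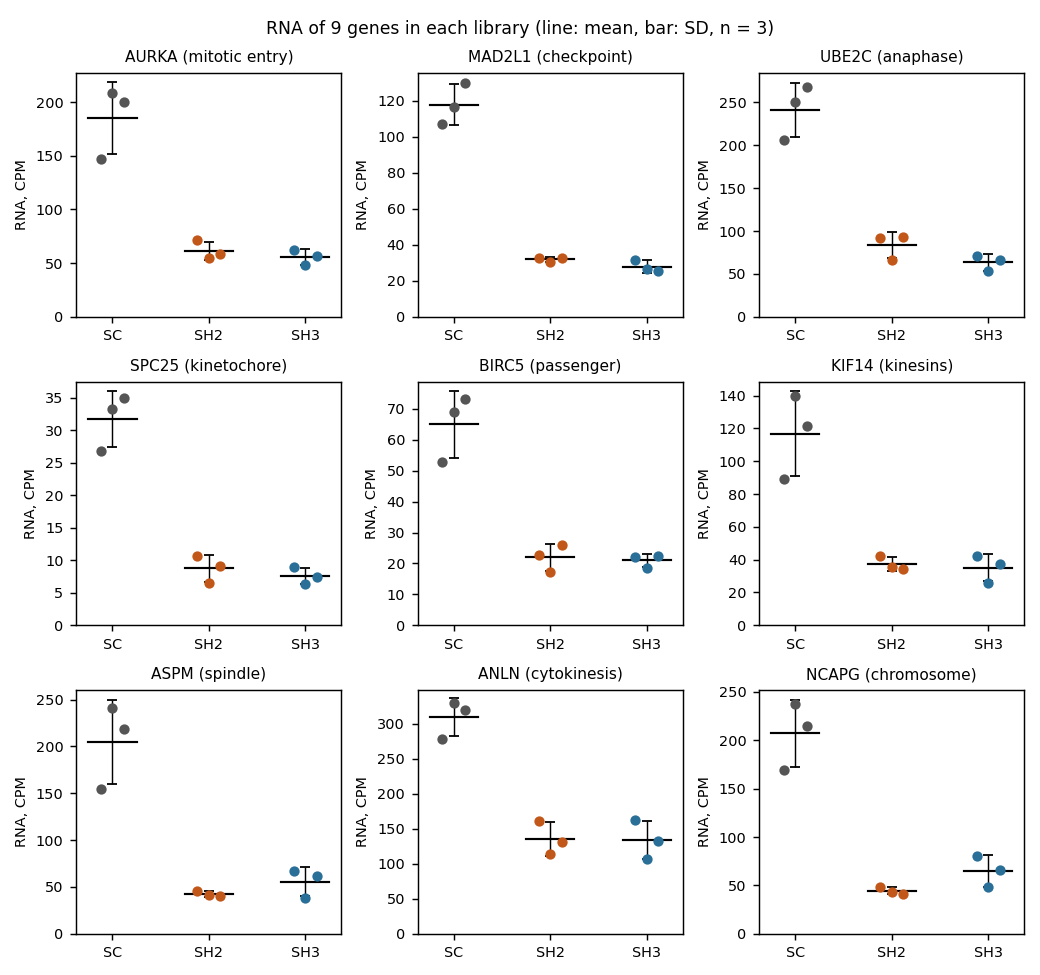
RNA level (CPM, axes from 0) of 1 gene per functional group in each library: points are the 3 libraries of SC, SH2 and SH3, the line is the mean and the bar is the SD. Each panel shows the gene with the smallest adjusted p in its group, taking the larger of the SH2 and SH3 values. Separation therefore follows from the choice and does not stand for the other members. In each panel all 3 SC points lie above all SH2 and SH3 points, for example MAD2L1 at 107 to 130 CPM in SC and at 25.3 to 32.8 CPM in the knockdowns.

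The 7 centromere and outer kinetochore genes had the most negative median of any group in both comparisons, -1.76 with SH2 and -1.90 with SH3. SPC25, a subunit of the NDC80 complex that couples kinetochores to microtubules, was at 26.7, 33.3 and 34.9 CPM in SC, at 10.6, 6.55 and 9.03 in SH2, and at 8.88, 6.33 and 7.43 in SH3. Its SC libraries lie above all others, and it changed by -1.86 (SE 0.18) and -2.07 (SE 0.18). The other 3 subunits of that complex moved by similar amounts, SPC24 to 27.0% and 24.9% of the SC level, NDC80 by -1.56 and -1.61, and NUF2 by -1.46 and -1.61. CENPA, the histone H3 variant that marks the centromere, fell (-1.96 and -1.93), as did the kinetochore motor CENPE (-1.76 and -1.90). CENPF, a large protein of the outer kinetochore corona, was at 207, 419 and 312 CPM in SC, at 97, 91.8 and 89 in SH2, and at 169, 101 and 147 in SH3. Its SC values spread more than those of any other member (SD 34.0% of the mean), and it fell (-1.76 and -1.17).

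In the chromosomal passenger complex, 3 of 4 genes fell with SH2 and 4 of 4 with SH3. The subunit BIRC5 (survivin), which docks the complex at centromeres, was at 52.8, 69 and 73.3 CPM in SC, at 22.9, 17.3 and 25.9 in SH2, and at 22, 18.6 and 22.4 in SH3. It changed by -1.56 (SE 0.16) and -1.63 (SE 0.16). The catalytic subunit AURKB fell (-1.15 and -1.44), as did borealin, CDCA8 (-1.09 and -1.42). INCENP, the scaffold that binds and activates AURKB, was the exception, at 35.9, 62.1 and 55.9 CPM in SC, 48.8, 34.9 and 51.1 in SH2, and 36.7, 27.4 and 34.3 in SH3. Its groups overlap, with SC replicate 1 below both SH2 replicates 1 and 3, and its change of -0.19 (SE 0.19) with SH2 was not called (edgeR adjusted p = 0.393). Its change of -0.64 with SH3 was called (edgeR adjusted p = 0.0112), but not when SC replicate 2 or SH3 replicate 2 was left out (0.0518 and 0.0502).

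All 8 kinesin motors fell with both hairpins, with medians of -1.17 and -1.13. KIF14, a motor of the midbody, was at 89, 140 and 122 CPM in SC, at 42, 35.5 and 34.1 in SH2, and at 42, 26.1 and 37.3 in SH3. Its SC libraries lie above all others, and it changed by -1.65 (SE 0.18) and -1.73 (SE 0.18). KIF11, which pushes spindle poles apart, fell (-1.10 and -1.04), as did KIF20A, a motor of the central spindle (-1.54 and -1.98). KIF18A, which limits chromosome movement at the metaphase plate, was at 60.7, 86.1 and 76.8 CPM in SC, at 38.1, 35.4 and 28.7 in SH2, and at 53.7, 42.8 and 51.3 in SH3. The 3 groups follow each other without overlap, and it changed by -1.13 and -0.60. The other 4 motors, KIF23, KIF2C, KIF4A and KIFC1, had changes between -1.29 and -0.88.

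All 7 spindle microtubule-associated genes fell, with medians of -1.23 and -1.49. ASPM, a protein of the spindle poles, was at 155, 241 and 218 CPM in SC, at 45.6, 40.9 and 40.8 in SH2, and at 67.5, 38.2 and 61.3 in SH3. It fell by 2.27 (SE 0.19) with SH2, the most of the 51 genes, and changed by -1.88 (SE 0.19) with SH3. TPX2, which activates AURKA on the spindle, fell least of this group with SH2 (-0.56 and -0.99). The microtubule-binding proteins PRC1 (-1.22 and -0.98), NUSAP1 (-1.89 and -1.49) and HMMR (-1.23 and -1.56) fell as well. These 3 genes had few counts, at most 14 CPM in any RNA library. DLGAP5 fell (-1.47 and -1.56), as did CKAP2 (-1.13 and -0.79).

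The 2 cytokinesis genes differed in size of change. ANLN (anillin), a scaffold of the contractile ring, was at 278, 330 and 319 CPM in SC, at 161, 114 and 131 in SH2, and at 162, 107 and 132 in SH3, and changed by -1.19 (SE 0.15) and -1.21 (SE 0.15). ECT2, the exchange factor that activates RhoA at the division plane, was at 170, 245 and 224 CPM in SC, at 157, 152 and 123 in SH2, and at 177, 156 and 173 in SH3. The SH3 libraries overlap SC replicate 1, and the changes were -0.56 and -0.34. The call with SH3 (edgeR adjusted p = 0.0429) was lost on leaving out SC replicate 2 or 3 or SH3 replicate 2 or 3, where the adjusted p was 0.057 to 0.181.

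The 6 genes of mitotic chromosome structure fell with both hairpins, with medians of -1.35 and -1.15. NCAPG, a condensin I subunit, was at 170, 237 and 214 CPM in SC, at 48.3, 43.6 and 41.5 in SH2, and at 80.4, 48.2 and 66.2 in SH3. It changed by -2.22 (SE 0.17) and -1.67 (SE 0.16). NCAPH, the kleisin of condensin I, was at 93.3, 117 and 113 CPM in SC, at 46.2, 35.3 and 44.7 in SH2, and at 67.9, 47.3 and 55.6 in SH3. Its SH2 libraries all lie below its SH3 libraries, and it fell (-1.36 and -0.92). The condensin ATPase SMC4 fell (-1.02 and -0.86), as did TOP2A, which untangles sister DNA (-1.34 and -1.39), and MKI67 (Ki-67), a surfactant of mitotic chromosomes (-1.50 and -1.58). SMC2, the other condensin ATPase, was at 107, 152 and 134 CPM in SC, at 114, 110 and 93.8 in SH2, and at 111, 99.2 and 102 in SH3. Its groups overlap, and its calls at -0.30 and -0.33 (edgeR adjusted p = 0.0454 and 0.0346) were each lost on leaving out 1 of several libraries. Without SC replicate 2 its changes were -0.18 and -0.21.

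**Figure D3:**
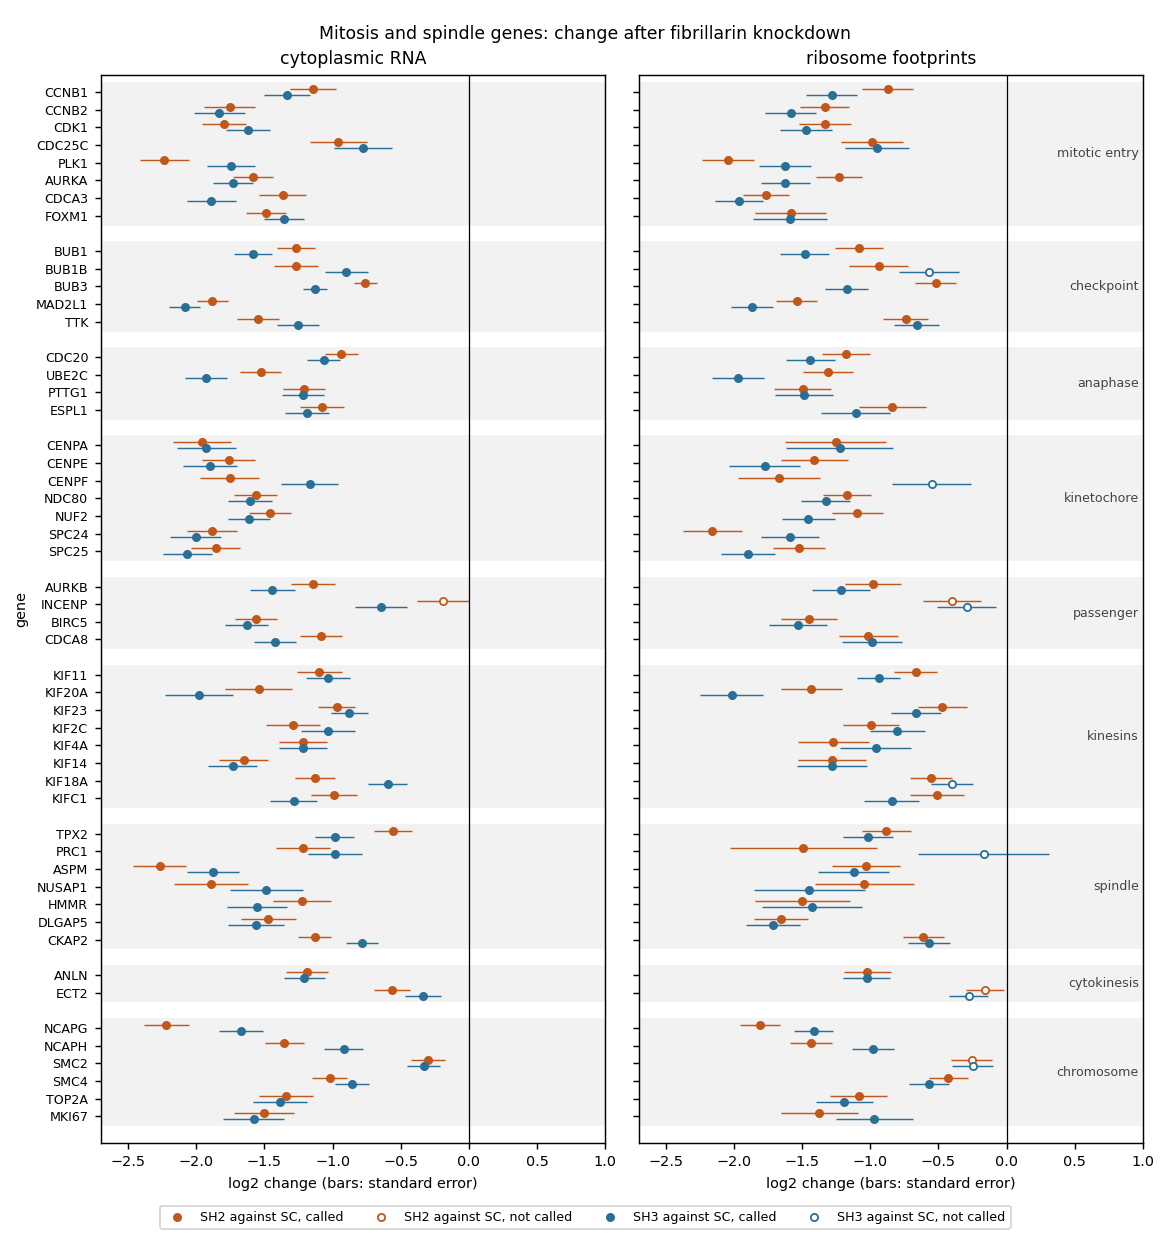
Change of each of the 51 genes against SC (log2, horizontal; bars are standard errors) in cytoplasmic RNA (left) and ribosome footprints (right), grouped by function, with SH2 in orange and SH3 in blue. Filled points passed the edgeR test and open points did not, and all points lie left of 0, with ASPM at -2.27 and INCENP at -0.19 in RNA as the ends of the SH2 range.

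The hairpins were also compared with each other, as a contrast of their means in the same fit, where the SC libraries enter the filter, the scaling and the spread. In RNA, 10 of 51 genes differed between SH2 and SH3, against 39.3% of all genes tested, and the median difference was 0.05. The count was 11 with the SC libraries left out of the fit, 2 without SH2 replicate 3, 3 without SH3 replicate 3 and 5 without SH2 replicate 1. CDCA3 (0.52), TPX2 (0.43), UBE2C (0.40) and BUB3 (0.37) were higher with SH2. CENPF (-0.59), NCAPG (-0.55), KIF18A (-0.53), PLK1 (-0.49), NCAPH (-0.44) and CKAP2 (-0.35) were lower with SH2. Without SH3 replicate 1 NCAPG was at -0.34 and NCAPH at -0.26, and both calls were lost (edgeR adjusted p = 0.114 and 0.181). The edgeR adjusted p was 0.00346 for BUB3, 0.00929 for KIF18A and 0.0169 for NCAPG, and lay between 0.0264 and 0.045 for the other 7. BUB3 stood out for its small spread, at 237, 239 and 247 CPM in SH2 and 189, 185 and 185 in SH3, and it was the only one of the 10 called in each of the 12 other settings tried at that threshold. In 4 genes, KIF18A, CENPF, NCAPH and CKAP2, all SH2 libraries lay below all SH3 libraries (25.6% of all genes), and in 2, BUB3 and TPX2, all lay above (24.4%). The libraries of PLK1, NCAPG, UBE2C and CDCA3 overlapped between the hairpins.

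Ribosome footprints fell with RNA. With SH2, 48 of 51 genes fell in footprints and 0 rose, where 23.2% of the 10345 genes tested were called lower and 21% higher. With SH3, 44 of 51 fell and 0 rose, against 19% and 16.9%. The median changes were -1.17 and -1.22, and 33 and 32 members were at -1 or below (9.94% and 7.93% of all genes). Summed over the 51 genes, footprints were at 9397, 7167 and 8948 CPM in SC, at 3630, 4355 and 4439 in SH2, and at 4478, 3202 and 3864 in SH3. No knockdown library reached an SC library, and the means were 48.7% and 45.2% of that of SC. Singly, 46 and 42 genes had all knockdown libraries below all SC libraries (26.3% and 23.9% of all genes).

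INCENP, ECT2 and SMC2 were not called in footprints with either hairpin, and their changes lay between -0.40 and -0.16. With SH3, BUB1B (-0.57), KIF18A (-0.40), CENPF (-0.55) and PRC1 (-0.17) were not called either, with edgeR adjusted p of 0.0523, 0.0562, 0.149 and 0.81. With a replicate block BUB1B and KIF18A were called (edgeR adjusted p = 0.0288 and 0.0414). CENPF footprints were at 306, 100 and 173 CPM in SC, at 70.7, 45.9 and 68.3 in SH2, and at 166, 115 and 120 in SH3, so all SH3 libraries lie within the SC range and all SH2 libraries below it. PRC1 rests on few reads, 22, 7 and 12 footprint counts in SC, 4, 2 and 4 in SH2, and 6, 3 and 10 in SH3. Its sign with SH3 turned on leaving out SC replicate 1 (0.10) or SH3 replicate 2 (0.29). CENPA, with 4 to 17 footprint counts in the SH2 libraries, fell (-1.26 and -1.22). Its SH2 call was lost without SC replicate 3 or SH2 replicate 1 (edgeR adjusted p = 0.0509 and 0.0557), and its SH3 call without SC replicate 3 or SH3 replicate 2 (0.0855 and 0.150).

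MAD2L1, PLK1 and NCAPG, with some of the largest falls in RNA, also fell in footprints. MAD2L1 footprints were at 300, 290 and 287 CPM in SC, at 92.9, 107 and 102 in SH2, and at 101, 73.6 and 68 in SH3, changes of -1.54 (SE 0.15) and -1.87 (SE 0.15). PLK1 footprints were at 150, 119 and 175 CPM in SC, at 30.7, 30.8 and 46.9 in SH2, and at 51.5, 41.1 and 52.6 in SH3, changes of -2.04 and -1.62. NCAPG footprints were at 305, 258 and 262 CPM in SC, at 75.9, 78.3 and 81.6 in SH2, and at 122, 88 and 101 in SH3, changes of -1.81 and -1.42. For these 3 genes every knockdown library lies below every SC library. The most negative footprint changes were SPC24 with SH2 (-2.16) and the motor KIF20A with SH3 (-2.02).

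Between the hairpins, 4 of 51 genes differed in footprints (23.8% of all genes). BUB3 (0.65) and UBE2C (0.66) were higher with SH2, and CENPF (-1.12) and NCAPH (-0.46) were lower, with edgeR adjusted p of 0.00634, 0.0187, 0.0136 and 0.0438. All 4 are among the 10 genes that differed in RNA, in the same direction. BUB3 footprints were at 305, 336 and 349 CPM in SH2 and at 214, 226 and 191 in SH3, with no overlap. Without SH2 replicate 2 the count was 1, BUB3, without SH2 replicate 1 it was 7, and with the SC libraries left out of the fit it was 6. UBE2C was at 0.43 without SH3 replicate 2 and was not called there (edgeR adjusted p = 0.105).

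Translational efficiency, the change in footprints beyond the change in RNA, was tested as an interaction over all 18 libraries. With SH2, 1 of 51 members was called, ASPM, against 3.9% of 12531 genes. With SH3 no member was called (0.686% of all genes), and between SH2 and SH3 none was called either (0.016%). DESeq2 called 3, 0 and 0 members, and the share of all genes that it called is not given here. At an unadjusted p under 0.05 edgeR gave 5 members with SH2 (TTK, KIF18A, ASPM, CKAP2 and SMC4, 17.9% of all genes), 1 with SH3 (TTK, 12.6%) and 1 between the hairpins (SPC24, 11.7%). The ratio rose by 1.21 for ASPM with SH2 (SE 0.34, edgeR adjusted p = 0.0491). ASPM footprints were at 49.5, 25.7 and 39.1 CPM in SC, 14.8, 19.6 and 22.3 in SH2, and 25.2, 16.4 and 13.7 in SH3, a change of -1.03 with SH2 beside -2.27 in RNA. The ASPM call was lost in 8 of the 12 other settings, among them leaving out any single SH2 replicate or SC replicate 2 or 3, with an adjusted p of 0.00582 to 0.240 over all 12. Its value was 0.89 without SC replicate 2 and 1.63 without SC replicate 1.

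As a description, footprints fell less than RNA in 38 of 51 genes with SH2 and in 40 of 51 with SH3, with a median difference of 0.24 and 0.17. Over all genes called lower in RNA, 57.9% and 45.5% had the less negative change in footprints, with a median difference of 0.07 and -0.04. TTK had a difference of 0.79 and 0.59, which did not pass the test (edgeR adjusted p = 0.0582 and 0.277). CDCA3 and CDC20 were at the other end, at -0.41 with SH2 and -0.36 with SH3. The median ratio change of the 51 genes depends on the SC libraries that stand apart. It was 0.23 with SH2 and 0.17 with SH3 on all libraries, 0.49 and 0.36 without SC replicate 1, and 0.02 and -0.01 without SC replicate 2.

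**Figure D4:**
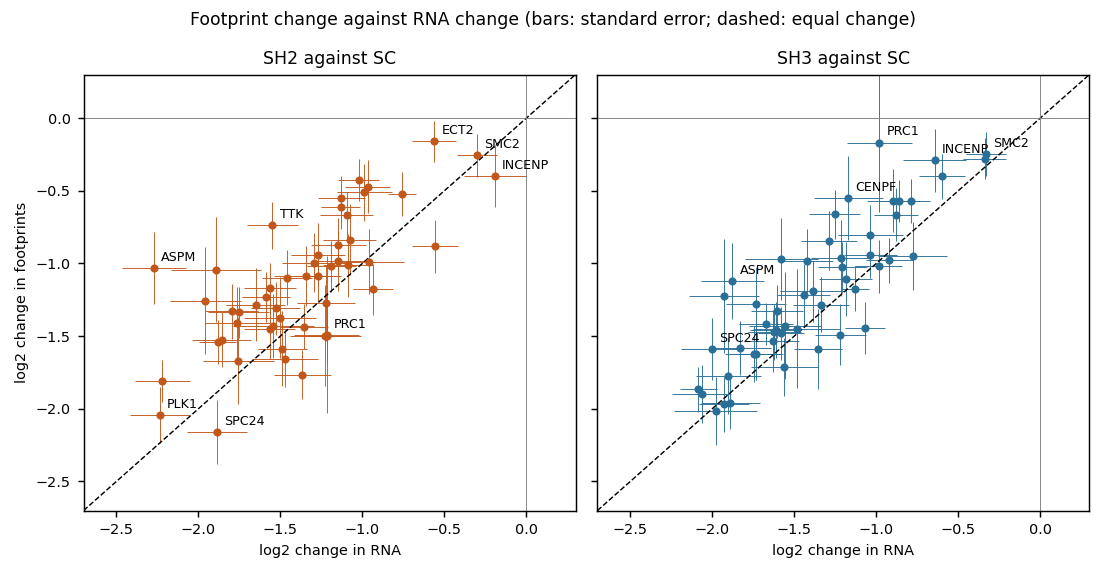
Change in ribosome footprints (vertical, log2) against change in cytoplasmic RNA (horizontal, log2) for the 51 genes, with SH2 against SC on the left and SH3 against SC on the right. Bars are standard errors, the dashed line marks equal change, and points above it (38 of 51 and 40 of 51) fell less in footprints than in RNA, ASPM the farthest above it with SH2.

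In SC the members spanned a wide range of footprints per RNA. The log2 ratio of mean footprint to mean RNA level had a median of 0.10 over the members and -0.17 over all 10335 genes tested in both, and 31 of 51 members lay above the latter. FOXM1 was lowest at -3.33, with 32.1, 22.3 and 26.1 CPM in footprints beside 234, 291 and 287 in RNA. NUF2 was highest at 1.34, with 157, 170 and 147 CPM in footprints beside 48.9, 71.8 and 66.9 in RNA. The ratio is taken within a gene, so it is not a comparison of expression levels between genes.

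Other genes of cell division were read from lists by function. Of 28 other spindle, centrosome and cytokinesis genes, 26 fell and 1 rose in RNA with SH2, and 24 fell and 1 rose with SH3, with medians of -0.96 and -1.04. Of 32 other kinetochore and checkpoint genes, 24 fell and 1 rose, and 20 fell and 3 rose (medians -0.87 and -0.62). Of 15 other regulators of mitotic entry, 11 fell and 3 rose, and 11 fell and 1 rose (-0.91 and -0.78). Of 11 MuvB, MYB and DREAM factors, 9 fell and 2 rose, and 6 fell and 2 rose (-0.76 and -0.51). Of 16 genes of cohesin, its protectors and other condensin subunits, 11 fell and 0 rose, and 5 fell and 1 rose (-0.69 and -0.17). The 17 genes of the APC/C core and its partners moved in both directions, with 8 lower and 2 higher, and 5 lower and 4 higher (-0.16 and 0.01). Over all genes tested, 30.4% fell and 31.1% rose with SH2, and 25.2% fell and 27.8% rose with SH3, so with SH3 the share of the APC/C and cohesin genes that fell is near that of all genes. Tested directly, SH2 was lower than SH3 in 9 and higher in 0 of the 16 cohesin genes, lower in 13 and higher in 1 of the 32 kinetochore genes, and lower in 6 and higher in 1 of the 11 MuvB genes. It was lower in 7 and higher in 3 of the 28 spindle genes, lower in 5 and higher in 2 of the 17 APC/C genes, and lower in 3 and higher in 1 of the 15 entry genes, where 39.3% of all genes differed in either direction. That share is not split by direction here. By library values alone, all SH2 libraries lay below all SH3 libraries in 25.6% of all genes and above them in 24.4%.

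**Figure D5:**
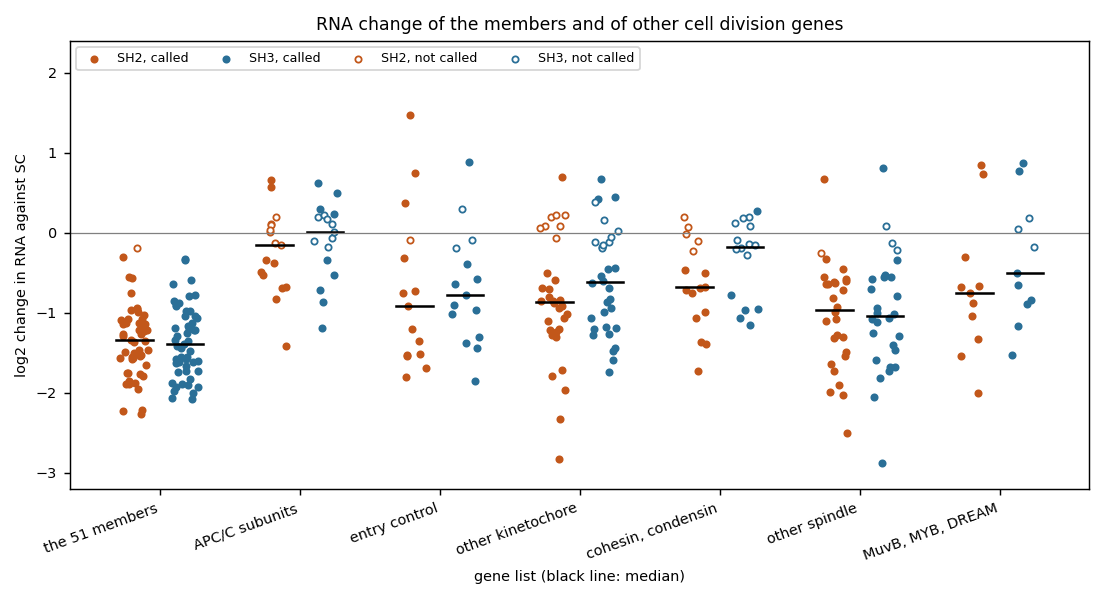
RNA change against SC (log2, vertical) of each of the 51 genes and of each gene in 6 other cell division lists, with SH2 in orange and SH3 in blue, filled where the edgeR test was passed, and a black line at each median. The 51 genes have medians of -1.34 and -1.39, and the APC/C list has medians near 0.

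Among those other genes, SKA1, part of the complex that tracks microtubule ends at kinetochores, was at 23.1, 25.7 and 24.5 CPM in SC, at 3.73, 3.5 and 3.13 in SH2, and at 11.1, 8.64 and 10.6 in SH3. It fell (-2.82 and -1.27). PBK, a mitotic kinase, was at 67.8, 95 and 93.8 CPM in SC, at 26.9, 21.4 and 20.3 in SH2, and at 12.2, 10.3 and 12.5 in SH3, changes of -1.90 and -2.87. PLK4, the kinase that starts centriole duplication, was at 101, 114 and 117 CPM in SC, at 21.3, 19.4 and 18.2 in SH2, and at 33, 19.7 and 27.4 in SH3, changes of -2.50 and -2.06. None of these groups overlaps SC. MYBL2, the MuvB partner, fell by 2.00 with SH2 and changed by -1.53 with SH3.

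The largest rises common to both hairpins were in LIN37, CDC25B and NUMA1. NUMA1, which links spindle poles to dynein, was at 122, 265 and 181 CPM in SC, at 283, 312 and 313 in SH2, and at 351, 305 and 340 in SH3. It rose by 0.68 and 0.81, and by 0.42 with SH2 without SC replicate 1. CDC25B, a phosphatase that starts CDK1 activation, was at 85.1, 130 and 109 CPM in SC, at 181, 158 and 204 in SH2, and at 208, 184 and 205 in SH3, rises of 0.75 and 0.88. LIN37, a MuvB subunit, rose by 0.84 and 0.88 but was at most 1.05 CPM in any RNA library, and its calls were lost in 8 and 7 of 12 other settings.

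CDKN1A (p21), an inhibitor of cyclin-dependent kinases that favours the DREAM repressor at these genes, was singled out after its values were seen. Its RNA was at 52.3, 36.6 and 42.5 CPM in SC, at 122, 111 and 133 in SH2, and at 28.8, 29.3 and 26.3 in SH3. It rose by 1.48 with SH2 and fell by 0.64 with SH3 (edgeR adjusted p = 4.05e-07 and 0.000771), and its footprints changed by 1.08 and -0.63. Of the 51 mitotic genes 50 fell with SH2, where CDKN1A was higher, and 51 with SH3, where it was lower. Whether CDKN1A bears on the change of these genes was not tested.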

How the data were processed

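Input cytoplasmic RNA and ribosome footprints were measured in 9 libraries each (SC, SH2 and SH3, 3 replicates each). The authors deposited raw read counts per gene for all 18 libraries in a single table. Per the submitters' processing notes Bowtie 1.2.2 and DESeq2 were used. Genome build, counting tool and treatment of reads that match several places are not given in the sources used here, and strand is not stated, so reads of overlapping genes may be shared. The authors' deposited log2 fold changes of RD, a measure named in the file headers, were compared once. The other deposited columns, DESeq2-normalized signal, p-values and further log2 changes, were not used.

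From the deposited counts, CPM were computed with TMM scaling and tested with edgeR 4.0.16 (R 4.3.3): filterByExpr, quasi-likelihood F tests, two-sided, Benjamini-Hochberg adjustment over all genes tested, called at 0.05. RNA and footprints were each fitted over 9 libraries, and translational efficiency as an interaction over 18. The test was run on simulated counts with independent libraries, none of them outlying or paired, so that check does not cover such features of these data. The counting error of a footprint library is larger than that of an RNA library because of its lower depth. No pair of replicates agreed within sampling noise, and each was counted as 1 sample. That excess spread does not show that they came from separate transductions or cultures.

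Members and lists were chosen with earlier results of these data known. Values in every library are given for the member of each functional group with the smallest larger-of-the-pair adjusted p in RNA, for the 6 called members that differ most between SH2 and SH3, for members called in translational efficiency, and for the 3 largest rises and falls of other listed genes called alike with both hairpins. Values of INCENP, ECT2, SMC2, BUB3, FOXM1, NUF2 and PRC1, as exceptions or ends of a range, and of CDKN1A were added after they were seen.

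Same-numbered libraries deviated together between SH2 and SC (r = 0.34 to 0.37 in RNA and 0.25 to 0.30 in footprints, each over 0.1). Between SH3 and the others not every number did, in RNA or in footprints. The numbers may thus pair SH2 with SC samples, which rests on these correlations alone. The main fits used no block, and p-values come from them unless another setting is named. Alternatives were other scalings, no filter, DESeq2 1.42.0, a replicate block, only the groups compared, stricter thresholds and leaving out each replicate. Promoters came from RefSeq (GRCh38.p14), the first listed start per gene.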

Additional observations from a re-analysis of the deposited data

Results flagged for a closer look

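The mitotic genes below differed between the hairpins in a direct test of SH2 against SH3, taken from the fit that also holds the SC libraries. In RNA the log2 differences were -0.59 for CENPF, -0.55 for NCAPG, -0.53 for KIF18A, -0.49 for PLK1, -0.44 for NCAPH and -0.35 for CKAP2, all lower with SH2. CDCA3 (0.52), TPX2 (0.43), UBE2C (0.40) and BUB3 (0.37) were higher with SH2. In footprints the differences were -1.12 for CENPF and -0.46 for NCAPH, and 0.66 for UBE2C and 0.65 for BUB3. Of the 10 RNA calls, only that of BUB3 held in each of the 12 other settings at the same threshold. On leaving out SH3 replicate 1 the RNA values of NCAPG and NCAPH were -0.34 and -0.26, and on leaving out SH3 replicate 2 the footprint value of UBE2C was 0.43, none of them called. The footprint calls of CENPF and NCAPH were also lost on leaving out single replicates, SH2 replicate 2 or SH3 replicate 1 among them. These are 10 of 51 genes in RNA and 4 of 51 in footprints, where 39.3% and 23.8% of all genes differed.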

How the results depend on the processing

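With 51 members, calls against SC kept their direction in RNA in all 12 other settings at the same threshold. Of 50 RNA calls with SH2, 49 held in each of those settings, and of 51 with SH3, 48 did. In footprints 39 of 48 and 36 of 44 did. Leaving out each replicate in turn gave 49 to 51 and 48 to 51 called members in RNA, and 41 to 49 and 36 to 48 in footprints (36 without SH3 replicate 2). With plain library totals the median change of all genes in RNA was 0.11 with SH2 and 0.12 with SH3, against 0.01 and 0.03 with the main scaling. Between the hairpins in RNA (10 called) the count was 6 with plain totals, 2 at an adjusted p under 0.01, 0 at an absolute log2 change of at least 1, and 2 to 9 on leaving out a replicate. Between them in footprints (4 called) it was 7 with the replicate block, 1 at an adjusted p under 0.01, 1 at an absolute log2 change of at least 1, and 1 to 7 on leaving out a replicate. In translational efficiency with SH2 (1 called) it was 0 with plain totals, with only the groups compared and at an adjusted p under 0.01, 2 with no filter, 3 with DESeq2, and 0 to 5 on leaving out a replicate. With SH3 (0 called) it was 0 to 2, the 2 without SC replicate 1. The cause of these shifts was not tested. Shares of all genes called in each of these settings are not given here. The counts therefore show only how far the calls depend on the processing.

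With the replicate block the counts were 50, 51 and 11 in RNA (SH2, SH3, SH2 against SH3) and 48, 46 and 7 in footprints, and it changed no count against SC by more than 1.5 times. BUB1B (-0.54) and KIF18A (-0.39) passed in footprints with SH3 under the block (edgeR adjusted p = 0.0288 and 0.0414). A replicate block over same-numbered RNA and footprint libraries gave 0 in translational efficiency. RNA and footprint numbers 1 and 2 did not deviate together in SC and SH2, so it and the leave-one-out values of the ratio may join libraries of different lysates. Settings were run gene by gene for all members in RNA and footprints against SC, for the called members between hairpins and for 5 members in the ratio against SC, and among these values signs turned for 3 with SH3, none of them called. PRC1 footprints were at 0.10 without SC replicate 1 and ranged from -0.51 without SH3 replicate 3 to 0.29 without SH3 replicate 2. On leaving out a replicate, the ratio of KIF18A ranged from -0.0436 (without SC replicate 2) to 0.40, and that of CKAP2 from -0.00765 (without SC replicate 2) to 0.45. PRC1, NUSAP1, HMMR and CENPA had the fewest footprint counts of the members.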

Other observations

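In the authors' deposited table the log2 fold changes of the measure named RD were identical for SH2 and SH3 in all 17017 genes. Across 12531 genes, which are not independent replicates, they correlated with the edgeR change in footprint to RNA ratio at r = 0.46 for SH2 and 0.86 for SH3. They were not used for the members.

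The replicates of a treatment also differed in their summed mitotic RNA. SH3 replicate 2 was the lowest SH3 library for 47 of the 51 genes in RNA and for 41 in footprints, and SH2 replicate 2 was the lowest SH2 library for 38 in RNA, while SH2 replicate 1 was the lowest for 39 in footprints. The SD between replicates was 17.4% of the mean for the median member in SC RNA, 15.2% in SH2 and 17.2% in SH3.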
